A study of Homo sapiens with 4 samples.

Results

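The collagen and laminin genes were examined in PC3, a human cell line established from prostate cancer, with and without knockdown of METTL3, the enzyme that methylates adenosines in messenger RNA to N6-methyladenosine. Members were the protein-coding genes of the count table whose names begin with COL, a number, A and a digit, or with LAMA, LAMB or LAMC and a digit. These were 56 of 60544 genes, made up of 44 collagen genes and 12 laminin genes. Poly(A) RNA was sequenced from 2 libraries of cells labelled shNC, the control arm, and 2 libraries of cells labelled sh812, read as the knockdown arm because the series names METTL3 knockdown against control and sh812 is the only other label. All 4 libraries came from the same line in the same medium with fetal bovine serum. The labels give 1 hairpin name per arm and do not say whether an arm was a clone or a pool, or whether its 2 libraries came from separate cultures, so p-values measure the spread between these libraries, which may be technical.

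Laminins are cross-shaped trimers of an alpha, a beta and a gamma chain, and type IV collagen is a trimer that forms sheets. Together they make up the basement membrane, the thin matrix on which epithelial cells rest and which carcinoma cells cross when they invade. Fibrillar collagens, mainly the products of connective tissue cells, assemble into the ropes of the interstitial matrix, and other collagen families sit at the surface of these fibrils, at the basement membrane or in the cell membrane. Their transcripts are long, and the chains need dedicated enzymes and carriers in the endoplasmic reticulum before they are secreted.

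Library totals ran from 31450648 to 37041330 counts, and members took 0.528% to 0.669% of them. METTL3 was at 44.3 and 43.6 CPM (counts scaled to a common, TMM-adjusted library size) in shNC and at 7.66 and 8.75 CPM in sh812, so the targeted gene was low in both sh812 libraries. The epithelial markers of the line (KRT8, KRT18, KRT19, KRT7, EPCAM, CDH1) summed to 1427 to 1546 CPM in shNC and 1619 to 1675 CPM in sh812. Of these, 3 of 6 rose, against 5.43% of all tested genes called higher. Stromal fibroblast markers, a possible source of collagen RNA, summed to 8.38 to 9.31 CPM in shNC and 8.86 to 9.86 CPM in sh812. Of these 10 genes, 2 of which (LUM and DCN) are also among the maturation genes, 9 had a mean under 1 CPM over the 4 libraries (up to 1.36 CPM in a single library, for PDGFRA), LUM was at 3.60 CPM, TCF21 was at 0 everywhere and 0 changed in edgeR's quasi-likelihood test (1 higher and 1 lower at an unadjusted p under 0.05). Leukocyte markers summed to under 1 CPM in every library, with CD3E at 0. The endothelial list summed to 41.6 to 42.6 CPM in shNC and 44.0 to 50.4 CPM in sh812, almost all of it PECAM1, which rose, and KDR, which fell, while CDH5 and VWF were near 0.

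Of the 56 members, 39 passed the low-count filter and 17 did not. Those 17 had at most 12 counts in any library and included COL4A3, COL4A4, COL5A3, COL14A1, LAMB4 and every one of COL19A1 to COL26A1 except COL21A1. COL6A5 had no count. Of the 39 tested members, 14 fell and 1 rose at an adjusted p under 0.05, against 5.42% of all 16802 tested genes called lower and 5.43% called higher. The median log2 fold change was -0.27 over the 39 and -0.006 over all tested genes, and 30 of the 39 fitted values were below 0. In bulk RNA, fewer expressing cells and less RNA per cell cannot be told apart. Without sh812 replicate 1, 7 members were called, all lower, against 1.82% of all genes called lower and 1.46% higher (3.28% in all, in place of 10.8%). LAMA5, LAMB1, COL4A1, COL4A2, COL4A5, COL6A2, COL6A3 and COL1A2 then missed the threshold. Without sh812 replicate 2, 7 members were called, all lower, against 2.26% and 1.55% (3.81% in all), and LAMB1, COL4A1, COL4A2, COL6A2, COL12A1, COL5A1, COL5A2 and COL1A2 missed it. Without shNC replicate 1, 16 members fell and 2 rose (COL1A2 and COL13A1), against 5.16% and 5.24% (10.4% in all). Without shNC replicate 2, 17 fell and 1 rose, against 8.64% and 9.50% (18.1% in all). LAMA3, LAMB2, LAMB3 and COL3A1 were the 4 members that were called in the same direction in all 14 fits, namely the reported one and its 13 alternatives.

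**Figure D1:**
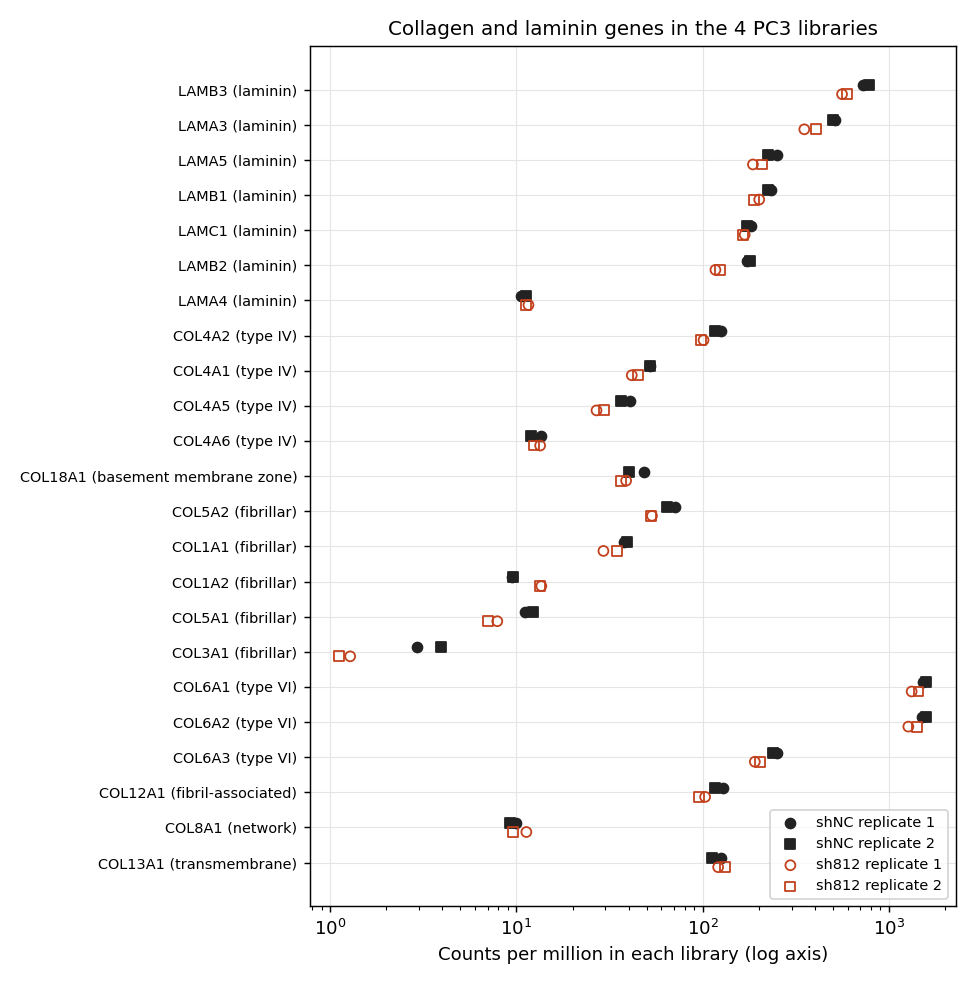
Level of 23 of the members that had a mean of at least 10 CPM or were called, in each library, in CPM on a log axis. Filled symbols are the shNC libraries and open symbols the sh812 libraries, and the type VI chains COL6A1 and COL6A2 lie farthest to the right, between 1270.0 and 1583 CPM.

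Basement membrane genes, the 12 laminin and 6 type IV collagen chains, were the larger of the 2 classes compared. Of these 18 genes, 15 were tested, 8 fell and 0 rose (8 lower and 0 higher at an unadjusted p under 0.05), against 5.42% and 5.43% of all tested genes, with a median log2 fold change of -0.26. Their summed level was 2785 and 2781 CPM in the shNC libraries and 2197 and 2328 CPM in the sh812 libraries, or 81.3% of the control level. Both sh812 sums lay below both shNC sums, which were almost equal, while the sh812 sums differed from each other by more. With 2 libraries against 2, an exact permutation test cannot give a two-sided p under 0.333, so no test of the sum was made. LAMB3 alone supplied 26.4% of this sum. Without sh812 replicate 1, 3 of the class were called lower, against 1.82% of all genes, and without sh812 replicate 2, 5 were, against 2.26%.

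LAMA3 and LAMB3 encode the alpha and beta chains of the laminin that anchors epithelial cells through hemidesmosomes and that is a known substrate for migrating carcinoma cells. LAMB3, on chromosome 1 from 209614870 to 209652466 in GENCODE 29, was the most abundant laminin gene, at 729 and 782 CPM in shNC and 559.7 and 597 CPM in sh812. It fell to 76.5% of the control level, with a log2 change of -0.39 (SE 0.06, adjusted p = 8.90e-05). LAMA3 was at 515 and 502 CPM in shNC and 351 and 404 CPM in sh812, and it fell with a log2 change of -0.43 (SE 0.06, adjusted p = 6.77e-05). In both genes the sh812 libraries lay clear of the shNC libraries, and in LAMA3 the sh812 libraries were farther from each other than the shNC libraries were. The count ratio of LAMA3 to LAMA5, the alpha chain of the other epithelial laminin, was 2.05 and 2.26 in shNC and 1.89 and 1.93 in sh812. The chain ratios were picked after the values were seen and have no test.

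The promoter table from RefSeq (GRCh38.p14) held 41 of the 56 members, with 55 start sites. Of the 15 called members it held 12, with 15 start sites, of which LAMB3 has 3. The called genes COL1A2, COL3A1 and COL5A2 were not in it. LAMA3 and LAMB3 are shown because both genes fell and because of a shared motif. TGANTCA, the letters that AP-1 factors recognise, occurred on at least one strand in the window from 250 bases before to 50 bases after the start in 7.71% of all 35116 promoters, in 3 of the 55 member promoters (COL10A1, LAMA3 and LAMB3) and in 2 of the 15 promoters of called members. It reads the same on both strands, so a match counts once. The 250 bases before the start are printed 5′ to 3′ on the gene's strand, with each match in capitals. The LAMA3 stretch is chr18:23872770-23873019 on the plus strand, and its start site, 23873020, lies inside the gene, which GENCODE 29 places from 23689443 to 23956222, so it belongs to a shorter transcript than the longest one annotated. The LAMB3 stretch is chr1:209651375-209651624 on the minus strand, before the only one of its 3 listed start sites with a match. The matches begin 125 and 69 bases before the LAMA3 start and 67 bases before the LAMB3 start, and gene counts do not show which start was used.
LAMA3: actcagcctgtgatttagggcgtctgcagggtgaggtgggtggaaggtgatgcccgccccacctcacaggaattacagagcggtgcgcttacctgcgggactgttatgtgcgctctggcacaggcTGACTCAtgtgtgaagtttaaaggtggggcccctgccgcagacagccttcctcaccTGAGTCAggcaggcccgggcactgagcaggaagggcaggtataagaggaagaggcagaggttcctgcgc
LAMB3: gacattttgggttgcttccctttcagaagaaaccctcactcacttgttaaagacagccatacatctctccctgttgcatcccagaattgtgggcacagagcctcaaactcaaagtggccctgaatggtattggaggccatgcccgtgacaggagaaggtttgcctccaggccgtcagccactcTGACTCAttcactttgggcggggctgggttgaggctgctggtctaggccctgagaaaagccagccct

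The other epithelial laminin, built from the products of LAMA5, LAMB1 and LAMC1, is a general component of basement membranes. LAMA5 was at 251 and 223 CPM in shNC and 186 and 209 CPM in sh812. It fell with a log2 change of -0.26 (SE 0.07, adjusted p = 0.0130), with a gap between the groups smaller than the spread of either pair. LAMB1 was at 233 and 225 CPM in shNC and 201 and 189 CPM in sh812, and fell with a log2 change of -0.23 (SE 0.06, adjusted p = 0.0135). LAMC1, the gamma chain shared by most laminins, was at 181 and 173 CPM in shNC and 168 and 164 CPM in sh812, with a log2 change of -0.09 (SE 0.06, adjusted p = 0.352). The count ratio of LAMB1 to LAMC1 was 1.29 ± 0.00612 in shNC and 1.18 ± 0.0281 in sh812 (SD, n = 2). LAMA5 overlaps ADRM1 and LAMB1 overlaps DLD on the opposite strand in GENCODE 29, and whether reads were counted by strand is not given in the sources used here, so reads of such partners cannot be told apart.

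LAMB2, the beta chain that takes the place of LAMB1 in laminins of muscle, kidney and nerve, had the lowest log2 change among the 11 tested laminin genes. It was at 172 and 179 CPM in shNC and 117 and 124 CPM in sh812, or 68.6% of its control level, with a log2 change of -0.54 (SE 0.06, adjusted p = 1.75e-06). No library of one group came near the other group. The count ratio of LAMB2 to LAMB1 was 0.736 and 0.799 in shNC and 0.581 and 0.655 in sh812. Alpha chains of mesenchymal and vascular laminins were low. LAMA4 was at 10.6 and 11.2 CPM in shNC and 11.6 and 11.2 CPM in sh812 (log2 fold change 0.07, SE 0.13, adjusted p = 0.804). LAMA1, LAMA2 and the gamma chain gene LAMC3 had means under 2 CPM in both groups. Their log2 fold changes of 0.28, 0.59 and -0.26 did not pass the test.

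**Figure D2:**
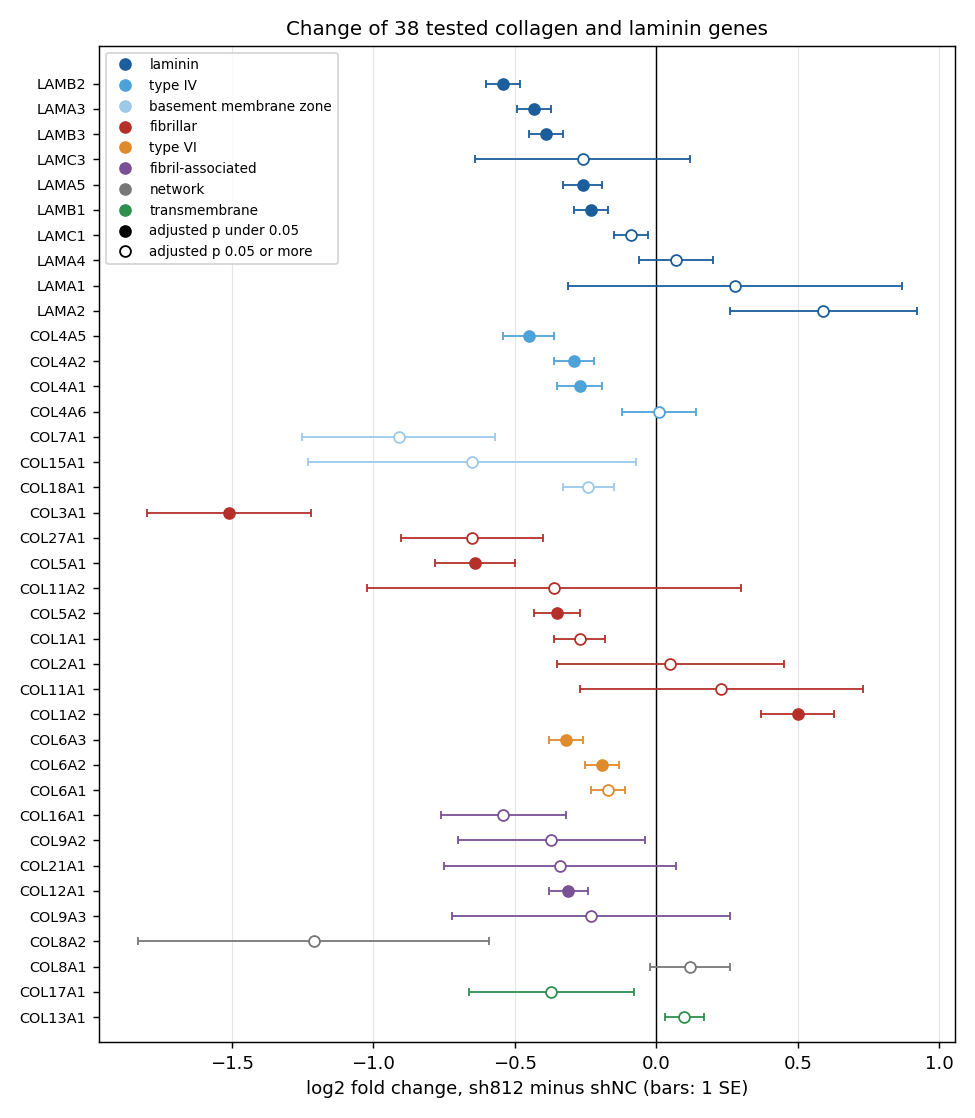
Fitted log2 fold change of 38 of the 39 tested members, sh812 minus shNC, with bars of 1 SE, coloured by class. Filled points had an adjusted p under 0.05, and of these COL1A2 alone lies to the right of 0.

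Type IV collagen is encoded by 6 genes that stand in 3 head-to-head pairs. COL4A1 and COL4A2, whose products form the common network of all basement membranes, lie on chromosome 13, and their RefSeq start sites are 127 bases apart. COL4A2 was at 126 and 117 CPM in shNC and 101 and 97.6 CPM in sh812. COL4A1 was at 52.2 and 51.8 CPM in shNC and 41.6 and 44.8 CPM in sh812. Both fell by like amounts, with log2 fold changes of -0.29 (SE 0.07, adjusted p = 0.00472) for COL4A2 and -0.27 (SE 0.08, adjusted p = 0.0294) for COL4A1. The COL4A1 to COL4A2 count ratio was 0.415 and 0.443 in shNC and 0.414 and 0.459 in sh812, and these ranges overlap. GENCODE 29 has the models of these 2 genes overlap on opposite strands, so some reads could be shared between them.

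COL4A5 and COL4A6 form another such pair, on chromosome X, with their nearest RefSeq start sites 380 bases apart, and they encode chains of specialised epithelial basement membranes. COL4A5 was at 40.7 and 36.4 CPM in shNC and 26.9 and 29.4 CPM in sh812, and fell to 73.1% of the control level (log2 fold change -0.45, SE 0.09, adjusted p = 0.00211). COL4A6 was at 13.6 and 11.9 CPM in shNC and 13.4 and 12.4 CPM in sh812, with overlapping groups and a log2 change of 0.01 (SE 0.13, adjusted p = 0.968). The COL4A5 to COL4A6 count ratio went from 2.98 and 3.05 in shNC to 2.01 and 2.37 in sh812, with no overlap between the groups. Whether the pairs differ was not tested. COL4A3 and COL4A4, the remaining pair, had at most 10 counts in any library and were not tested.

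Stretches from these pairs, without the one before COL4A6, are shown because both genes fell in one pair and COL4A5 alone was called in the other. The COL4A1-COL4A2 stretch is the whole interval between the 2 start sites, chr13:110307158-110307283 (GRCh38.p14, RefSeq), printed 5′ to 3′ on the plus strand toward COL4A2. The COL4A5 stretch is the 250 bases before its start on the plus strand, chrX:108439588-108439837. Capitals mark CCAAT and GGGCGG, each searched on both strands (ATTGG is CCAAT on the other strand). The chromosome 13 interval holds CCAAT beginning 105 bases and GGGCGG 65 bases before the COL4A2 start. The COL4A5 stretch holds CCAAT 247 and 239 bases before its start and no GGGCGG. It does not span the whole 380 bases to the COL4A6 start. The COL4A6 windows are not printed, and both CCAAT and GGGCGG occurred among them, so the stretches shown do not compare the pairs. In windows of 300 bases, CCAAT occurred in 34.6% and GGGCGG in 45.0% of all promoters in the table, against 16 and 32 of the 55 member promoters and 4 and 13 of the 15 promoters of called members. Those 15 belong to 12 genes, and the COL4A1 and COL4A2 windows overlap.
COL4A1-COL4A2: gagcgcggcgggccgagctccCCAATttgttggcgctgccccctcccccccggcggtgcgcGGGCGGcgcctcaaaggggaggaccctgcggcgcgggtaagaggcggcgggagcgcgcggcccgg
COL4A5: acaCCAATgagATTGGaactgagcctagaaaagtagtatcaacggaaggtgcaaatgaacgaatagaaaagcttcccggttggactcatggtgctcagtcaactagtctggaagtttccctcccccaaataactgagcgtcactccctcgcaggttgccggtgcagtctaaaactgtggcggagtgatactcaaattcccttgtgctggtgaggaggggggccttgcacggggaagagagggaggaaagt

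Collagens linked to the basement membrane zone had lower fitted values that missed the threshold. COL18A1, the source of endostatin, was at 48.3 and 40.4 CPM in shNC and 38.8 and 36.6 CPM in sh812 (log2 fold change -0.24, SE 0.09, adjusted p = 0.0914). COL7A1, which forms the anchoring fibrils of skin, was at 2.14 and 2.15 CPM in shNC and 0.912 and 1.37 CPM in sh812 (log2 fold change -0.91, SE 0.34, adjusted p = 0.0882). COL15A1 was under 1 CPM in every library.

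Fibrillar collagens were a small class by level and mixed in direction. Of 11 genes, 9 were tested, 3 fell and 1 rose, against 5.42% and 5.43% of all tested genes, and the median log2 fold change was -0.35. Their summed level was 137 and 135 CPM in shNC and 110.1 and 113 CPM in sh812, 82.0% of the control level, close to the 81.3% of the basement membrane class although genes within it moved both ways. COL5A2 supplied 48.5% of the fibrillar sum. By fitted sign, 11 tested basement membrane genes were below 0 and 4 above, and 6 tested fibrillar genes were below 0 and 3 above. Without sh812 replicate 1, 3 of the class fell and 0 rose, against 1.82% and 1.46% of all genes, and without sh812 replicate 2, 1 fell and 0 rose, against 2.26% and 1.55%.

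COL3A1, which accompanies type I collagen in extensible tissues, had the largest fall of all tested members that were called. It was at 2.93 and 3.95 CPM in shNC and 1.28 and 1.12 CPM in sh812, from 111 and 125 counts against 45 and 40, or 34.9% of the control level. Its log2 change was -1.51 (SE 0.29, adjusted p = 0.00131), and the shNC libraries differed from each other more than the sh812 libraries did. COL5A1 and COL5A2 encode chains of type V collagen, which starts the growth of type I fibrils. COL5A1 was at 11.1 and 12.2 CPM in shNC and 7.89 and 7.01 CPM in sh812, and fell with a log2 change of -0.64 (SE 0.14, adjusted p = 0.00397). COL5A2 was at 70.6 and 64.0 CPM in shNC and 53.4 and 52.6 CPM in sh812, and fell with a log2 change of -0.35 (SE 0.08, adjusted p = 0.00386). COL3A1 and COL5A2 are neighbours on chromosome 2, from 188974320 to 189012746 and from 189031896 to 189225312.

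COL1A2, on chromosome 7 from 94394561 to 94431232, was the only member that rose. It was at 9.49 and 9.55 CPM in shNC and 13.6 and 13.4 CPM in sh812, 142% of the control level, with a log2 change of 0.50 (SE 0.13, adjusted p = 0.0116). The libraries of each group were nearly equal, and the groups were well apart. COL1A1, whose product pairs with that of COL1A2 in type I collagen, was at 37.6 and 39.4 CPM in shNC and 29.3 and 34.5 CPM in sh812, with a log2 change of -0.27 (SE 0.09, adjusted p = 0.0589). The COL1A1 to COL1A2 count ratio was 3.96 and 4.13 in shNC and 2.16 and 2.57 in sh812. Type I collagen of connective tissue holds more COL1A1 chains than COL1A2 chains, and per transcript length the COL1A1 level was also the higher of the pair, at 5.72 ± 0.190 RPKM (CPM per kilobase of transcript, SD, n = 2) against 1.76 ± 0.00761 RPKM in shNC, and 4.74 ± 0.543 against 2.49 ± 0.0192 RPKM in sh812. GENCODE 29 places an antisense gene, AC002074.1, over COL1A2. COL1A2 was no longer called without either sh812 library (log2 fold change 0.50 and 0.51, adjusted p = 0.0953 and 0.0739).

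The remaining fibrillar genes did not pass the test. COL27A1 was at 3.43 and 3.19 CPM in shNC and 2.05 and 2.18 CPM in sh812, with a log2 change of -0.65 (SE 0.25, adjusted p = 0.100) and groups that did not overlap. COL2A1 and COL11A1, collagens of cartilage, had means between 0.738 and 1.27 CPM in both groups and log2 fold changes of 0.05 and 0.23. COL11A2 had means of 0.438 CPM (shNC) and 0.337 CPM (sh812).

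**Figure D3:**
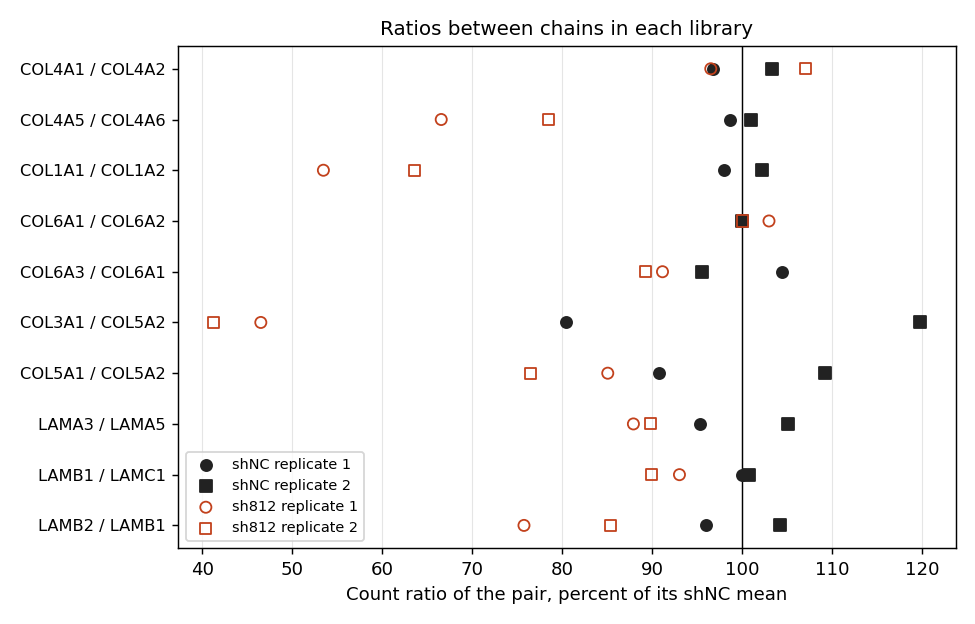
Count ratio of 10 pairs of members in each library, as a percent of the pair's mean ratio in shNC. The COL1A1 to COL1A2 and COL3A1 to COL5A2 ratios moved farthest in sh812, and the COL4A1 to COL4A2 ratio had overlapping libraries.

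Type VI collagen, a microfibril that links cells and basement membrane to the interstitial matrix, held 51.5% of all member CPM. COL6A1 and COL6A2, neighbours on chromosome 21, were the most abundant members, also per length. COL6A2 was at 1504 and 1571 CPM in shNC and 1270.0 and 1419.6 CPM in sh812, and COL6A1 at 1525 and 1583 against 1323 and 1440.2 CPM. The groups did not overlap in either gene, but the sh812 libraries were farther from each other than the shNC libraries were. The log2 fold change was -0.19 for COL6A2 (SE 0.06, adjusted p = 0.0341) and -0.17 for COL6A1 (SE 0.06, adjusted p = 0.0546), so the 2 genes fell on opposite sides of the threshold with nearly the same change. The COL6A1 to COL6A2 count ratio stayed between 1.01 and 1.04 in the 4 libraries. COL6A3, the long chain on chromosome 2, was at 252 and 238 CPM in shNC and 190.4 and 202 CPM in sh812, and fell with a log2 change of -0.32 (SE 0.06, adjusted p = 0.00108). Its level per length was 22.8 ± 0.908 RPKM in shNC against 367 ± 9.78 RPKM for COL6A1 and 444 ± 13.8 RPKM for COL6A2 (SD, n = 2), so the chains of this collagen were far from equal in RNA.

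Among fibril-associated collagens, which bind the surface of fibrils, COL12A1 was the only abundant gene. It was at 129 and 117 CPM in shNC and 103 and 96.0 CPM in sh812, and fell with a log2 change of -0.31 (SE 0.07, adjusted p = 0.00429). COL16A1, COL21A1, COL9A2 and COL9A3 had means under 5 CPM, fitted log2 fold changes from -0.54 to -0.23 and no call. COL13A1, a transmembrane collagen of cell adhesion sites, was as abundant as COL12A1 by count and did not share its direction, at 125 and 112 CPM in shNC and 121 and 132 CPM in sh812 (log2 fold change 0.10, SE 0.07, adjusted p = 0.420). COL17A1, the hemidesmosomal collagen, was at 2.24 and 2.50 CPM in shNC and 2.11 and 1.56 CPM in sh812 (log2 fold change -0.37, SE 0.29, adjusted p = 0.483). The network collagen COL8A1 was at 9.94 and 9.26 CPM in shNC and 11.3 and 9.61 CPM in sh812, with overlapping groups, and COL8A2 was under 1 CPM.

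Ordered by level per transcript length in shNC, COL6A2 (444 ± 13.8 RPKM) and COL6A1 (367 ± 9.78 RPKM) came first. Of the laminin genes, LAMB3 (176 ± 8.64 RPKM) lay well above LAMA3 (47.7 ± 0.865 RPKM; SD, n = 2). LAMB1 (39.7 ± 1.04 RPKM) and COL13A1 (37.2 ± 2.89 RPKM) differed by less than their spread, as did COL6A3 (22.8 ± 0.908 RPKM) and LAMC1 (22.4 ± 0.693 RPKM). LAMB2 lay between these pairs at 30.9 ± 0.981 RPKM. LAMA5, at 20.7 ± 1.77 RPKM, was within its spread of LAMC1, and COL4A2 came next at 18.7 ± 0.976 RPKM. The length used is that of the longest transcript in the GENCODE basic set, so the level per length of a gene read mainly from a shorter form would be understated. In sh812, COL6A2 was at 389 ± 30.6, COL6A1 at 326 ± 19.5 and LAMB3 at 134 ± 6.08 RPKM, in the same order as in shNC.

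Members have long transcripts, and transcript length moved with the groups in these libraries. The median length was 6.42 kb over the 39 tested members and 2.96 kb over all tested genes, and 37 of the 39 were above that median. Over the 12254 genes whose mean log2 CPM was above 1, change and length had a Spearman correlation of -0.34 (genes share libraries and are not replicates). Among the 39 members this correlation was 0.01. Of the 35 tested members of at least 4 kb, 13 fell, against 10.4% called lower among all 5730 tested genes of that length. With each library's trend on length removed, 11 members fell and 1 rose, against 4.87% and 4.94% of all genes (9.81% in either direction), and the median of the 39 was -0.21 in place of -0.27. LAMA5, LAMB1 and COL4A1 then missed the threshold (adjusted p = 0.0686, 0.0560 and 0.114), which leaves 5 of the 15 tested basement membrane genes called lower, namely LAMA3, LAMB2, LAMB3, COL4A2 and COL4A5. COL3A1, COL5A1, COL5A2 and COL1A2 were called in the same direction as before. The shNC replicates also differ along length across all genes (Spearman correlation -0.33). In shNC replicate 2, 20 of the 39 members were lower than in replicate 1, or 51.3%, against 50.5% of all tested genes. The classes differed in this. Of the 15 tested basement membrane genes 9 were lower (60.0%), including all 4 tested type IV collagen genes, and of the 9 tested fibrillar genes 2 were (22.2%). The part of length in the members' change was not tested beyond these values.

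**Figure D4:**
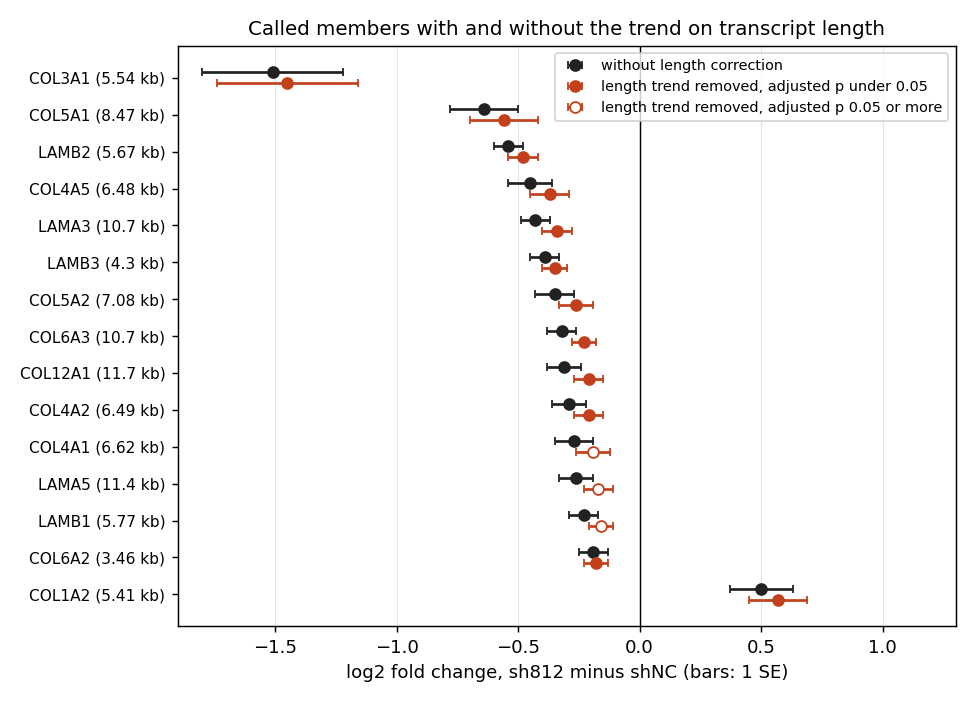
Log2 fold change of the 15 called members, sh812 minus shNC, with bars of 1 SE, before (black) and after (red) the trend on transcript length was removed. Labels give the transcript length in kb, and the 3 open red points, COL4A1, LAMA5 and LAMB1, had an adjusted p of at least 0.05 after the removal.

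Most calls were among the abundant members. Of the 22 tested members with a mean of at least 10 CPM, 12 fell and 1 rose, against 7.72% called lower and 8.54% called higher among all 9543 genes at that level. Of the 17 under 10 CPM, 2 fell (COL3A1 and COL5A1) and 0 rose, against 2.38% called lower and 1.34% called higher among the 7259 genes under that level (3.72% in either direction). Both sh812 libraries lay below both shNC libraries in 26 of the 39 tested members and above in 3, against 27.4% and 26.2% of all tested genes. The consensus letters of the METTL3 site, counted as GGACT in the longest transcript, occurred at a median of 1.18 per kb in tested members and 0.912 per kb in all tested genes, and in 100% and 87.4% of their transcripts. This counts letters, and methylation was not measured. The median transcript length was 6.42 kb in tested members and 2.96 kb in all tested genes. The median share of G and C was 55.9% and 48.2%. The share of transcripts with GGACT was not adjusted for length, nor the number per kb for G and C.

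Of 26 genes that act on collagen before secretion, in its synthesis and processing, all were tested, 5 fell and 1 rose, against 5.42% and 5.43% of all tested genes, with a median log2 fold change of -0.094. P3H1, a prolyl hydroxylase, was at 89.9 and 94.7 CPM in shNC and 74.7 and 76.8 CPM in sh812 (log2 fold change -0.28, SE 0.07, adjusted p = 0.00762). FKBP14, a prolyl isomerase of the endoplasmic reticulum, fell with a log2 change of -0.34 (SE 0.08, adjusted p = 0.00681). MIA3, which helps load bulky procollagen for export, fell with a log2 change of -0.27 (SE 0.07, adjusted p = 0.0113). TMEM38B, an ion channel of the same compartment, rose with a log2 change of 0.33 (SE 0.08, adjusted p = 0.0118). The remaining calls were PLOD2 and FKBP10, both lower. These calls depend on which libraries are kept. Without sh812 replicate 1 none of the 26 was called, and without sh812 replicate 2 FKBP14 alone was. Without shNC replicate 1 MIA3 was no longer called, and without shNC replicate 2 FKBP10 was not. Both of these fits also called further genes of the list. The collagen chaperone gene SERPINH1, chosen after its values were seen, had means of 78.4 CPM (shNC) and 89.7 CPM (sh812), with a log2 change of 0.19 (SE 0.07, adjusted p = 0.0678). It was called higher with the length trend removed (log2 fold change 0.20, adjusted p = 0.0420).

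Of 19 genes for maturation and crosslinking outside the cell, 17 were tested, 1 fell and 1 rose, with a median log2 fold change of -0.11. The called share, 11.8%, was near the 10.8% of all tested genes. The lower gene, PCOLCE2, and the higher one, TLL1, were both missed without sh812 replicate 1 and without shNC replicate 2. The latter fit called PXDN lower and LOXL1 higher instead. Without sh812 replicate 2, PCOLCE2 was still called and TLL1 was not. Both were called without shNC replicate 1. PCOLCE2, which enhances the trimming of procollagen, was at 18.4 and 21.3 CPM in shNC and 14.1 and 14.9 CPM in sh812 (log2 fold change -0.45, SE 0.11, adjusted p = 0.0120). TLL1, a protease that can do this trimming, was at 15.7 and 13.4 CPM in shNC and 19.1 and 19.5 CPM in sh812 (log2 fold change 0.41, SE 0.11, adjusted p = 0.0235). No lysyl oxidase gene was called in the reported fit, and they did not share a direction. LOXL4 was the lowest at a log2 change of -0.37 (SE 0.13, adjusted p = 0.0663). LOXL1 had a log2 change of 0.24 (SE 0.08, adjusted p = 0.0703). Among the alternative fits that kept all libraries, LOXL4 was called lower with the replicate block, and LOXL2 and LOXL4 with library size alone. Which lysyl oxidase genes were called also varied between the fits with 1 library left out.

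Among the proteins that join laminin and type IV collagen in the basement membrane, 14 of 20 genes were tested, 3 fell and 1 rose, against 5.42% and 5.43% of all tested genes, with a median log2 fold change of -0.26. AGRN, encoding agrin, was at 386 and 386 CPM in shNC and 305 and 324 CPM in sh812 (log2 fold change -0.30, SE 0.06, adjusted p = 0.00149). HSPG2, encoding perlecan, was at 67.0 and 60.5 CPM in shNC and 48.3 and 50.5 CPM in sh812 (log2 fold change -0.37, SE 0.08, adjusted p = 0.00285). HMCN1, encoding a hemicentin, fell with a log2 change of -0.58 (SE 0.17, adjusted p = 0.0242). It was not called with DESeq2 and missed the threshold with the length trend removed (adjusted p = 0.0651). Without sh812 replicate 1 none of these 3 was called, and without sh812 replicate 2 AGRN and HSPG2 were. NID2, encoding a nidogen that bridges laminin and type IV collagen, went the other way, from 11.1 and 11.9 CPM in shNC to 18.0 and 16.8 CPM in sh812 (log2 fold change 0.60, SE 0.12, adjusted p = 0.00174). Its more abundant relative NID1, named after its values were seen, was at 66.5 and 63.3 CPM on average (adjusted p = 0.602).

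Of 15 genes for receptors other than integrins, 13 were tested, 3 fell and 2 rose, against 5.42% and 5.43% of all tested genes, with a median log2 fold change of -0.11. MRC2, an endocytic collagen receptor, was at 62.2 and 63.5 CPM in shNC and 36.2 and 35.3 CPM in sh812 (log2 fold change -0.81, SE 0.08, adjusted p = 9.87e-08). SDC3, a syndecan, was at 41.4 and 40.8 CPM in shNC and 24.9 and 25.5 CPM in sh812 (log2 fold change -0.71, SE 0.09, adjusted p = 6.82e-06). In both genes the replicates were almost equal and the groups far apart. DDR2, a collagen-binding receptor kinase, fell from 3.45 and 3.04 to 1.94 and 1.45 CPM (log2 fold change -0.94, SE 0.27, adjusted p = 0.0262). RPSA, a ribosomal protein gene also described as a laminin receptor, rose with a log2 change of 0.34 (SE 0.06, adjusted p = 0.000816), but it has many near-identical copies and its count is uncertain. The other rise was in SDC2, which was not called without either sh812 library or without shNC replicate 1. With DESeq2, neither SDC2 nor DDR2 was called. DDR2 was also not called without sh812 replicate 2 or without shNC replicate 1.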

How the data were processed

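PC3 poly(A) RNA was measured in 2 shNC and 2 sh812 libraries. Strand was marked with dUTP, per the labels' protocols. The deposited table holds raw counts per gene, with no normalization by the authors. Per the submitters' processing notes, fastp, STAR 2.7.1a, featureCounts, DESeq2 and hg38 were used, with no role or order named, and the annotation and strand setting are not given in the sources used here. Tests used edgeR 4.0.16 under R 4.3.3 (low-count filter filterByExpr, TMM, quasi-likelihood test, two-sided, Benjamini-Hochberg over all 16802 tested genes, threshold 0.05, prior count 0.125), which was tested on simulated counts. Replicate pairs differed by more than sampling noise, with a chi-square per gene of 8.43 (shNC) and 4.51 (sh812). Positions and lengths come from GENCODE 29, matched by Ensembl identifier, and promoter sequences from RefSeq. The members, classes and gene lists were chosen with earlier results of these data known, and the chain ratios and the length and abundance classes after the values were seen. Members named are those called, those with a mean of at least 10 CPM, and every tested fibrillar gene. Of each list, up to 4 called genes with the smallest p are named with values. Some genes are not reported here. Alternatives were other scalings, filters, DESeq2 1.42.0, limma-voom (limma 3.58.1), a replicate block, removal of the length trend (lowess span 0.3) and each library left out.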

Additional observations from a re-analysis of the deposited data

How the results depend on the processing

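All 15 calls among the members were kept under RLE, upper quartile and library-size scaling, both other low-count filters, DESeq2, limma-voom and the replicate block. Library-size scaling and the mean CPM filter added COL6A1 and COL1A1, the replicate block COL1A1, and DESeq2, limma-voom and no filter COL6A1. Same-numbered libraries gave no sign of pairing (correlation of their deviations 0.0164), and the replicate block called 16 members and 2001 genes in place of 15 and 1822. Removal of the length trend left 12 of the 15 calls, with 5 basement membrane genes lower in place of 8. It also called 3 genes of the synthesis list higher in place of 1 (COLGALT1 and SERPINH1 added) and 6 lower in place of 5 (PLOD3 added). Of the partner genes it called 2 lower in place of 3. With library size alone, 561 genes were higher and 1328 lower in place of 912 and 910, the fibrillar sum had a log2 ratio of -0.33 in place of -0.29, and the maturation list had 0 higher and 4 lower, the receptor list 1 higher and 6 lower. The maturation list had 2 lower with the replicate block. With DESeq2 the receptor list had 1 higher (RPSA) and 2 lower (MRC2 and SDC3), without SDC2 and DDR2. The partner list then had 2 lower (AGRN and HSPG2), without HMCN1. What caused these differences was not tested. With 1 library left out, the lone library is assumed to vary like the other group. Members called lower then ran from 7 to 17 and higher from 0 to 2, basement membrane genes lower from 3 to 8, fibrillar genes higher from 0 to 1 and lower from 1 to 4. Over all genes, 261 to 1703 were higher and 326 to 1549 lower. The lists ran from 0 to 4 higher and 0 to 9 lower (synthesis), 0 to 1 and 0 to 5 (maturation), and 1 to 3 higher (receptors), and the partner list from 0 to 4 lower. Of the values for the named members, none that was called changed sign.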
